A study of Homo sapiens with 6 samples.

Results

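miR-103 and miR-107 are microRNAs that lie in introns of the PANK genes, which encode pantothenate kinases, the enzymes of the first step of coenzyme A synthesis. The 4 rows described here were picked by name from the 2588 mature miRNAs counted in Caco-2 cells, a line established from a colorectal adenocarcinoma. They are hsa-miR-107, hsa-miR-103a-3p, hsa-miR-103a-2-5p and hsa-miR-103b, which is encoded on the strand opposite miR-103a. The study used an antibody against 7-methylguanosine (m7G) to ask which miRNAs carry this base within their sequence. In another cell line it also used a chemical method, and regarded the miRNAs found by both as high-confidence. Its protocol removes RNA caps first. Small RNA libraries were made from 3 input RNA samples and from 3 samples of heat-denatured RNA that the antibody had immunoprecipitated (m7G-RIP). All came from Caco-2 cells in standard culture, with no treatment or genetic change named in the labels. The labels do not say whether the 3 replicates of a group came from separate cultures, so the p-values below measure the spread between these libraries, which may be technical.

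miR-103a-3p and miR-107 are paralogues found in all vertebrates. A miRNA recognizes mRNAs mainly through its seed, bases 2 to 8, and both share one seed, so they are treated as one regulatory family. They are known for targeting DICER1, the nuclease that cuts miRNA precursors, and CAV1, through which they have been linked to insulin sensitivity. Their seed overlaps, with a shift of 1 base, that of miR-15 and miR-16, which restrain the cell cycle, and the wider set is often named for miR-15 and miR-107.

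The mature sequences of the 4 members and of the most abundant relatives, miR-16-5p and miR-15b-5p, are shown to make the shared and the differing bases visible. They were taken from RefSeq (GRCh38.p14), are written 5′ to 3′ as RNA, and have the seed in capitals.
hsa-miR-107: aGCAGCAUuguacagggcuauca
hsa-miR-103a-3p: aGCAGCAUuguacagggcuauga
hsa-miR-103a-2-5p: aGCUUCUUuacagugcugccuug
hsa-miR-103b: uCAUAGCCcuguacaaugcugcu
hsa-miR-16-5p: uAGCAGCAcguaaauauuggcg
hsa-miR-15b-5p: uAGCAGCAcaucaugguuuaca
Counted from 1 at the 5′ end, miR-103a-3p and miR-107 differ in 1 of 23 bases, G22C, so that their first 21 bases are the same. miR-103b is the exact reverse complement of miR-103a-3p. Among the rows with a RefSeq sequence, miR-107 and miR-103a-3p had no other row with their seed, and miR-103a-2-5p and miR-103b shared theirs with none. The 6 letters AGCAGC start at base 1 of miR-107 and miR-103a-3p and at base 2 of each of the 9 other members of the miR-15 and miR-107 group.

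The hairpins place these miRNAs in the genome, where each lies in intron 5 of a PANK gene in the canonical GENCODE transcript and touches no annotated exon of it. MIR107 lies on the minus strand at chr10:89592747-89592827 in PANK1, MIR103A1 on the minus strand at chr5:168560896-168560973 in PANK3, and MIR103A2 on the plus strand at chr20:3917494-3917571 in PANK2 (GRCh38). All 3 are on the strand of their host gene. The MIR103B1 and MIR103B2 hairpins cover the same ground as MIR103A1 and MIR103A2 on the strand opposite the host. The 3 hairpins on the host strand are shown 5′ to 3′ with the mature 3p arm in capitals.
MIR107: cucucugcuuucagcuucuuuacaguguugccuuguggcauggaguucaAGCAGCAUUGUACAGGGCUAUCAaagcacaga
MIR103A1: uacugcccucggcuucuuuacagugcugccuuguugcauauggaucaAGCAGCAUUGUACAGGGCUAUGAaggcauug
MIR103A2: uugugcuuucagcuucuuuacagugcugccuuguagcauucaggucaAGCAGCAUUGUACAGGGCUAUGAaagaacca
MIR107 was 85.2% identical to MIR103A2 and 79.0% identical to MIR103A1 over the aligned columns, and the MIR103A hairpins were 80.8% identical to each other. G made up 23.5% of the bases of MIR107, 25.6% of MIR103A1 and 23.1% of MIR103A2. None of the 3 held 4 runs of at least 2 G with linkers of 1 to 7 bases, the loose form of a G-quadruplex motif, searched on the RNA strand only and present in 29.3% of 1562 RefSeq hairpins.

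Totals on miRNAs ranged from 16466178 to 19628046 counts in the input libraries and from 1654102 to 3105129 in m7G-RIP. Levels are given as CPM, counts per 1000000 scaled with TMM factors, which correct for the differing make-up of the libraries. All 8 epithelial and intestinal marker miRNAs had counts, among them miR-192-5p at 54882 CPM ± 4241 (SD, n = 3) in the input. Of 7 miRNAs of other tissues, 6 had counts in input or m7G-RIP, of which miR-223-3p had 0 in the input and 1 count in m7G-RIP. miR-1-3p, a muscle miRNA, reached 644 CPM ± 35.3 (SD, n = 3) in the input. The other muscle marker, miR-133a-3p, was at 60.7 CPM ± 6.49 (SD, n = 3) in the input. The markers for blood, liver and neuron were at 0 to 5.99 CPM in the input. The liver marker, miR-122-5p, had no counts, but a mature miRNA on the opposite strand overlaps it, so its 0 cannot be read as a level. The log2 ratio of m7G-RIP to input, called enrichment here, was 3.16 with a standard error of 0.16 for let-7e-5p, the miRNA that the study followed most closely.

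miR-107 was the one member with high counts, and it was lower in m7G-RIP than in the input. It had 10058, 11199 and 10763 counts in input replicates 1, 2 and 3, which is 857, 877 and 939 CPM. In m7G-RIP it had 1348, 1275 and 591 counts in replicates 1, 2 and 3, or 327, 287 and 218 CPM. Every m7G-RIP library was below every input library, and within m7G-RIP the library with the lowest total, replicate 3, was the lowest. The input mean was 891 CPM ± 42.6 and the m7G-RIP mean 277 CPM ± 55.4 (SD, n = 3 each). The log2 enrichment was -1.68 with a standard error of 0.17, or 3.21-fold lower. The adjusted p was 8.6e-07 (edgeR's quasi-likelihood test over all tested miRNAs with Benjamini-Hochberg adjustment), and the difference was larger than the spread within either group. Depletion was frequent, at 38.1% of the 800 miRNAs tested (42.1% with DESeq2, which also called miR-107 depleted), and 28.5% of them had a lower log2 enrichment than miR-107. The size of the change depends on the scaling. As a plain share of all counts miR-107 made up 0.0609% ± 0.00418 (SD, n = 3) of the input and 0.0401% ± 0.00404 (SD, n = 3) of m7G-RIP, and scaling by total counts alone gave a log2 enrichment of -0.60 and by upper quartiles of -0.86, both still called lower, while with total counts the median of all tested miRNAs moved up by 1.09.

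miR-103a-2-5p is the 5p arm of the MIR103A2 hairpin, the strand usually discarded when the hairpin is processed. It had 36, 22 and 51 counts in input replicates 1, 2 and 3, equal to 3.07, 1.72 and 4.45 CPM, and 0 counts in each of the 3 m7G-RIP libraries. The input libraries thus all held it at low level with a spread between replicates, and no m7G-RIP library held it. A floor of 3 counts per library lies between 0.676 and 1.11 CPM in m7G-RIP. The input mean of 3.08 CPM was 3.68 times the mean of this floor. This bound rests on means and leaves out the spread of the input, from 1.72 to 4.45 CPM, so single libraries can give less. The mean input level would have given 34.7 counts over the 3 m7G-RIP libraries if unchanged. It would have given 10.8 counts if lowered by the same factor as miR-107. With total counts in place of TMM the bound was 1.70-fold, and the input level of miR-103a-2-5p would have given 16.7 counts if unchanged. The edgeR test called it depleted (adjusted p = 0.000364), but it entered that test only through its input counts, so a call in any other direction was not possible and none is read from it. Such limits cover counting error only, since no molecular identifiers are named for these reads. In the input miR-107 was 289 times as abundant as miR-103a-2-5p, both 23 bases long, and between 211 and 509 times in single libraries.

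**Figure D1:**
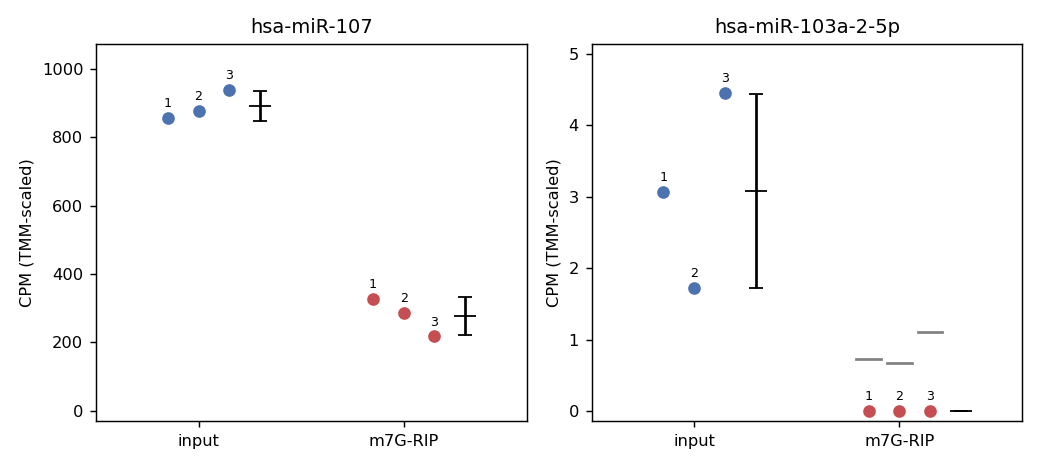
Level in CPM, scaled with TMM factors, of miR-107 (left) and miR-103a-2-5p (right) in 3 input and 3 m7G-RIP libraries. Numbered points are the libraries by replicate, the bar beside them is the mean with its SD, and grey lines mark 3 counts in libraries with none. miR-107 falls from 857 to 939 CPM in the input to 218 to 327 CPM in m7G-RIP, and miR-103a-2-5p is at 0 in m7G-RIP.

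miR-103a-3p, the main product of the MIR103A1 and MIR103A2 hairpins, had 0 counts in all 6 libraries. miR-103b also had 0 counts in each of them. The input libraries held 52746730 counts on miRNAs and the m7G-RIP libraries 7847152, so a count of 0 allows at most 0.262 CPM in any input library and 1.11 CPM in any m7G-RIP library, provided that a read of these miRNAs could be counted. Neither row passed the filter on low counts and neither was tested. Of the 4 members, then, 2 had counts. A row for the 5p arm of MIR103A1 was not analysed here.

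The zeros were set against how the mature miRNAs lie in the genome. miR-103a-3p has its sequence at chr5:168560904-168560926 and chr20:3917541-3917563, and at both places all 23 bases are overlapped by miR-103b on the opposite strand. miR-107 has 1 locus and miR-103a-2-5p has 1 locus, and neither is overlapped by a mature miRNA on the opposite strand. Of the 2588 rows, 2281 matched a RefSeq mature miRNA and could be placed in this way. Of 78 mature miRNAs that another one overlapped from the opposite strand at every locus, the pair of miR-103 rows included, 72 (92.3%) had 0 counts in all libraries. For 2080 miRNAs with 1 locus and no such overlap the share at 0 was 29.5%. The 78 include partners that overlap each other, as miR-103a-3p and miR-103b do, so these rows are not independent. The classes were not matched for level.

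The share at 0 was about the same with several loci as with 1. Of 118 mature miRNAs with several loci and no overlap, 35 (29.7%) were at 0, and miR-16-5p, which also comes from 2 loci, had 21264 to 26182 counts per input library. The 6 overlapped miRNAs that did have counts were overlapped over at most 20 bases, a length at which 45 of 51 were at 0 as well, and all 27 with an overlap of 21 bases or more were at 0. The best counted of the 6 was miR-3074-3p, with 640 counts over the 6 libraries. At the MIR103A2 hairpin the row of the 5p arm had 109 counts, all in the input, and the row of the 3p arm had none. No mature miRNA overlaps the 5p arm from the opposite strand, but the MIR103B2 hairpin covers it. Whether all 109 counts come from MIR103A2 was not tested. Other hairpins with an overlapped arm at 0 differed in the counts of their other arm. The other arm had 6 counts over the 6 libraries for miR-1245b-3p, 29 for miR-219a-5p and 118 for miR-6715b-3p. The miR-219a-5p row may also hold reads of another hairpin, the one that gives miR-219a-1-3p. It had 0 for miR-1295b-3p, miR-3191-3p, miR-3529-3p and miR-4433b-3p.

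**Figure D2:**
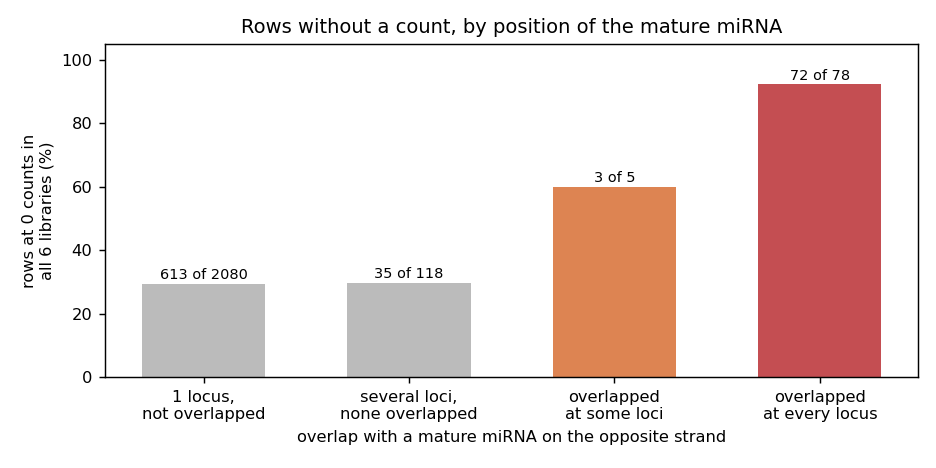
Share of rows with 0 counts in all 6 libraries, in percent, for mature miRNAs grouped by their number of loci and by overlap with a mature miRNA on the opposite strand. Numbers above the bars are rows at 0 of all rows in the class. The share is 92.3% for those overlapped at every locus, where miR-103a-3p and miR-103b belong, against 29.5% and 29.7% without overlap.

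The methods name featureCounts, but the strand setting and the treatment of reads that overlap several features are not given in the sources used here, so the part of the counting in these zeros was not tested. The 0 of miR-103a-3p therefore cannot be read as a measure of its level in Caco-2 cells or of its m7G. A further limit touches miR-107. A read of miR-103a-3p that ends before base 22 has the same letters as one of miR-107. The STAR settings in the methods let a read map to as many as 10 loci with at most 1 mismatch, and keep only its best-scoring loci. Under them a full-length read of miR-103a-3p without error would not reach miR-107. The submitters' processing notes name another mapper, Bowtie2, and how reads at several loci were assigned is not stated. How much of the miR-107 row comes from miR-103a cannot be told apart in these counts. A like limit touches miR-103a-2-5p. All but its first base also occur in the MIR103A1 hairpin, and the MIR107 hairpin holds the same stretch with 1 base changed. How much of the miR-103a-2-5p row comes from those hairpins cannot be told apart either.

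Within the miR-15 and miR-107 group, miR-107 ranked second in level after miR-16-5p. In the input miR-16-5p stood at 2030 CPM ± 316, miR-107 at 891 CPM ± 42.6, miR-15b-5p at 158 CPM ± 6.71, miR-503-5p at 44.2 CPM ± 4.20, miR-15a-5p at 31.4 CPM ± 2.13 and miR-424-5p at 10.6 CPM ± 0.532 (SD, n = 3 each). In m7G-RIP the order was the same, with miR-16-5p at 2487 CPM ± 565, miR-107 at 277 CPM ± 55.4, miR-15b-5p at 73.9 CPM ± 11.4, miR-503-5p at 37.5 CPM ± 8.69, miR-15a-5p at 20.1 CPM ± 6.38 and miR-424-5p at 6.23 CPM ± 3.37. miR-195-5p, miR-497-5p and miR-6838-5p had at most 11 counts in a library and miR-646 none, so their order was not resolved. In both groups the libraries of neighbouring miRNAs in this order did not overlap, from miR-16-5p down to miR-424-5p. miR-16-5p comes from several loci, and how reads at several loci were counted is not stated. The order of miR-16-5p and miR-107, and the gap between them, may depend on that counting, which was not tested. miR-103a-3p, which has the seed of miR-107, had no counts and has no place in this order.

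Of the 9 listed relatives of miR-107, 5 were tested, of which 2 were depleted, 0 were enriched (40.1% of all tested miRNAs were) and 3 were not called by edgeR's quasi-likelihood test (at an unadjusted p under 0.05 likewise 0 enriched). For miR-15b-5p the log2 enrichment was -1.09 with a standard error of 0.17 (edgeR adjusted p = 7.73e-05), and for miR-15a-5p it was -0.65 with a standard error of 0.26 (edgeR adjusted p = 0.0373). miR-16-5p, at 0.29 with a standard error of 0.18 (edgeR adjusted p = 0.152), miR-503-5p, at -0.23, and miR-424-5p, at -0.72, were not called. These calls depend on the scaling and the test. DESeq2 also called miR-503-5p, at -0.58, and miR-424-5p, at -1.08, depleted, so that 4 of the 5 were depleted against 42.1% of all tested miRNAs. With scaling by total counts none of the 5 was called depleted: miR-15b-5p stood at 0.00 and miR-15a-5p at 0.46, neither called, and miR-16-5p, at 1.40, and miR-503-5p, at 0.85, were called higher. With TMM the median of the 5 was -0.65, against 0.16 over all tested miRNAs, and miR-107 lay below all 5, as it also did with total counts, upper quartiles and DESeq2.

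**Figure D3:**
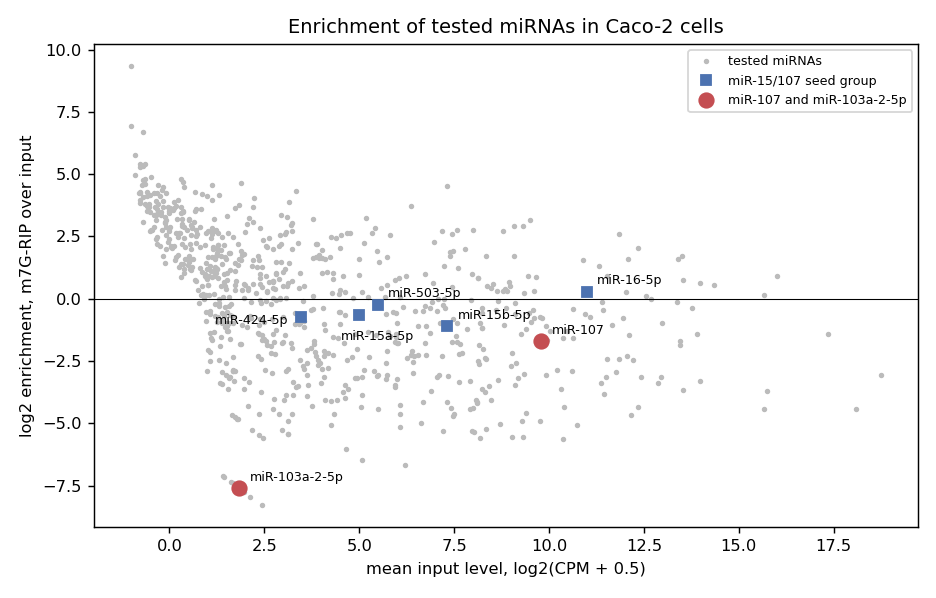
Log2 enrichment of m7G-RIP over input against mean input level, log2(CPM + 0.5), for the 800 tested miRNAs (grey). Red points are miR-107 at -1.68 and miR-103a-2-5p, whose fitted value rests on 0 counts in m7G-RIP, and blue squares are the 5 tested members of the miR-15 and miR-107 group, which lie between -1.09 and 0.29.

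A ratio of counts within 1 library needs no scaling, so miR-107 was also set against each tested relative in every library (log2 of counts plus 0.5). To miR-16-5p the log2 ratio was -1.38, -0.93 and -1.22 in input replicates 1, 2 and 3. In m7G-RIP it was -2.51, -3.37 and -3.58. The groups did not overlap, and relative to miR-16-5p miR-107 was 3.95-fold lower in m7G-RIP. The fold was 2.73 against miR-503-5p, 2.02 against miR-15a-5p, 1.75 against miR-424-5p and 1.52 against miR-15b-5p. In all 5 comparisons every m7G-RIP library lay below every input library. The same was true of the ratio of miR-107 to 61.1% of the other tested miRNAs. Each of the 5 had an exact two-sided permutation p of 0.1 (adjusted p = 0.1 over the 5), the smallest that 3 against 3 libraries allow, so the test could not reach 0.05.

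**Figure D4:**
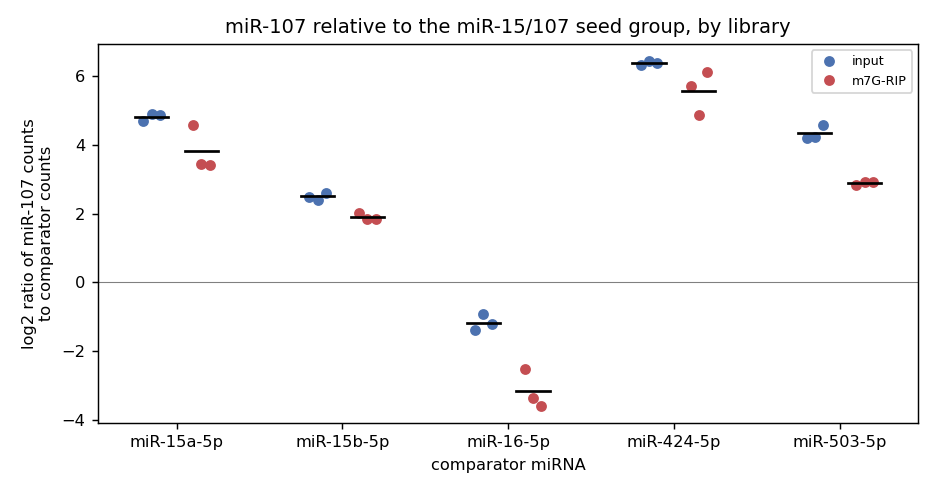
Log2 ratio of miR-107 counts to the counts of 5 members of the miR-15 and miR-107 group in the same library. Points are libraries, black lines group means. The m7G-RIP libraries lie below the input libraries for each comparator, with the widest gap for miR-16-5p, where the mean moves from -1.18 to -3.16.

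The passenger arms of the group, here its 3p arms by convention, were also listed. In the input miR-424-3p stood at 52.3 CPM and miR-424-5p at 10.6 CPM, so the name did not follow abundance there. The same held, at low counts, for miR-195-3p at 1.51 CPM and miR-195-5p at 0.838 CPM. Of the 8 listed arms, 6 were tested, and edgeR called 1 enriched, 2 depleted and 3 neither, against 40.1% and 38.1% of all tested miRNAs. DESeq2 called 0 enriched and 3 depleted. miR-15b-3p fell from 61.5 CPM to 5.31 CPM on average, with a log2 enrichment of -3.56 and a standard error of 0.29. miR-16-1-3p, with 66, 111 and 88 counts in input replicates 1, 2 and 3 and 2, 0 and 0 in m7G-RIP, is the other of the 2, but it passed the filter only through its input counts and nothing is read from its call. For miR-424-3p the log2 enrichment was 0.56 with a standard error of 0.22 in edgeR, a call that was lost with DESeq2 at 0.20 (adjusted p = 0.417). miR-16-2-3p, at -0.38 and not called by edgeR, was called depleted by DESeq2 at -0.75 and higher with total counts at 0.68. With total counts 4 of the 6 arms were called enriched and 2 depleted, against 442 and 198 of all 800 tested miRNAs. With upper quartiles 2 were enriched and 2 depleted, against 418 and 227 of the 800. Only miR-15b-3p, miR-16-2-3p and miR-424-3p passed the filter through both groups. miR-195-3p and miR-503-3p passed it only through m7G-RIP, so nothing is read from their calls under any scaling. No trait shared with miR-103a-2-5p is read from these arms.

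As a comparison for miRNAs whose host genes act in metabolism, miR-33a, in an intron of the sterol regulator SREBF2, miR-33b, in SREBF1, and miR-378a, in PPARGC1B, a coactivator of energy metabolism, were examined. Of their 6 arms, 5 were tested, of which 4 were depleted, 0 were enriched and 1 was not called by edgeR and by DESeq2 alike, against 38.1% of all tested miRNAs depleted and 40.1% enriched in edgeR. Of the 4, miR-33a-5p and miR-33b-3p passed the filter only through their input counts, so nothing is read from those 2 calls. All 5 values lay below 0 in both tests, so none was enriched at an unadjusted p under 0.05. miR-378a-3p stood at 11212 CPM ± 358 in the input and 3423 CPM ± 34.6 in m7G-RIP (SD, n = 3 each). Its log2 enrichment was -1.71 with a standard error of 0.13, within the standard error of miR-107. With total counts it was -0.61, but the median of all tested miRNAs moved up by 1.09 there, so no likeness is read from this shift. miR-378a-5p was depleted at -2.96 with a standard error of 0.22. miR-33a-5p had 48, 61 and 59 counts in input replicates 1, 2 and 3 and 2, 0 and 0 in m7G-RIP, and miR-33b-3p had 97, 109 and 78 against 1, 5 and 0. miR-33a-3p, at -0.16 with a standard error of 0.43, was not called.

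The 5 tested miRNAs with the profile nearest to miR-107 were found by the root mean square difference in log2(CPM + 0.5) over the 6 libraries. They were miR-96-5p at 0.21, miR-23a-3p at 0.31, miR-502-3p at 0.39, miR-361-3p at 0.40 and miR-185-5p at 0.46. miR-96-5p stood at 977 CPM ± 45.5 in the input and 306 CPM ± 63.6 in m7G-RIP (SD, n = 3 each). miR-23a-3p stood at 888 CPM ± 138 and 286 CPM ± 44.9. In m7G-RIP neither differed from miR-107 by more than the SD between libraries, while in the input miR-96-5p was higher by more than that SD. Of the 50 other tested miRNAs with an input level within 2-fold of miR-107, 35 were depleted and 9 enriched, and 18 had a lower log2 enrichment than miR-107, so it lay inside the range of miRNAs of like abundance.

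miR-107 has 6 G among 23 bases (26.1%), against a median of 27.3% among the 714 tested miRNAs with a RefSeq sequence, and its G run GGG starts at base 15. Among the other tested miRNAs, GGG, searched on the RNA strand of the mature sequence, occurred in 260 of 713 (36.5%). Of these 260 miRNAs, 170 (65.4%) were enriched and 50 (19.2%) depleted, with a median log2 enrichment of 2.08, and 34 had a lower value than miR-107. Of the 453 without GGG, 120 (26.5%) were enriched, with a median of -0.76. miR-107 thus lay toward the low end of the miRNAs that hold this run. Among 95 miRNAs whose G share was within 3 percentage points of that of miR-107, 52 were depleted and 14 enriched, with a median of -1.10. These are descriptions across miRNAs that share libraries and base composition, and they were not tested.

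**Figure D5:**
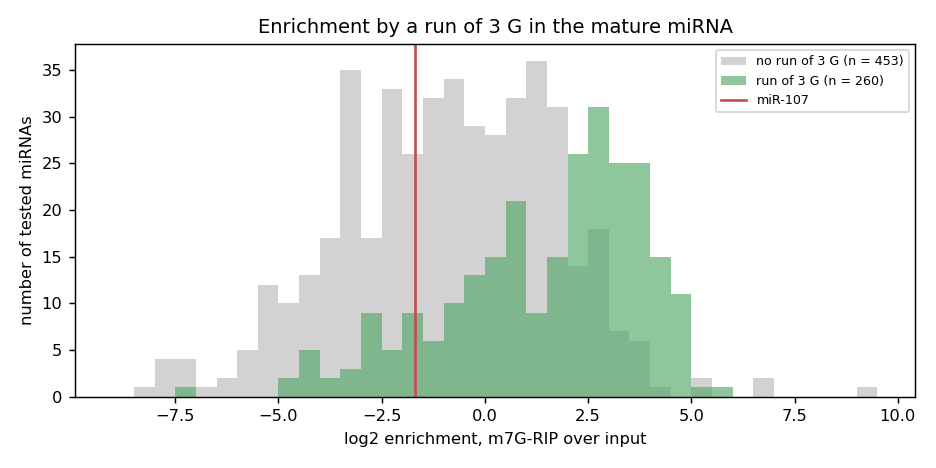
Number of tested miRNAs by log2 enrichment of m7G-RIP over input, in steps of 0.5, for mature sequences with a run of 3 G (green, n = 260) and without one (grey, n = 453). The red line marks miR-107 at -1.68, which holds the run and lies below most miRNAs with it.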

How the data were processed

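Small RNA libraries of Caco-2 cells, 3 input and 3 m7G-RIP, were grouped by their titles. The deposited values are raw counts of reads per mature miRNA. Per the methods, the authors trimmed adaptors with Trimmomatic, mapped to GRCh38 with STAR and counted with featureCounts on miRBase, while the submitters' processing notes name Bowtie2 as the mapper. From these counts, miRNAs were kept by filterByExpr (minimum count 10, minimum total 15), scaled with TMM and tested with the quasi-likelihood test of edgeR 4.0.16 in R 4.3.3, with Benjamini-Hochberg adjustment and a call at an adjusted p under 0.05. In 800 simulated miRNAs 86 of 92 changes of 2 on the log2 scale and 71 of 108 changes of 1 were recovered. The simulation left most miRNAs unchanged, drew changes evenly in both directions and used a single fixed dispersion. It therefore did not test the scaling and does not measure power in these libraries. Replicates differed by more than sampling noise, with chi-square values per degree of freedom between 17.5 and 105, so none was counted as a copy. Sequences, loci and overlaps came from RefSeq (GRCh38.p14), with 2281 of 2588 rows matched, and hosts from GENCODE release 44. Input totals of at least 16466178 against at most 3105129 counts in m7G-RIP make low values in m7G-RIP the less precise.

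The text names the members, the listed relatives, passenger arms, metabolic and marker miRNAs, the 5 nearest profiles, and miRNAs by locus and overlap. Members and lists were chosen with earlier results of these data known. The sets by G content, by input level and by length of overlap, and the comparison of a ratio over all tested miRNAs, were added after the values were seen. Alternatives were other scalings, DESeq2 1.42.0, other filters, a stricter threshold, the replicate block and leaving out each library. The scalings and DESeq2 for the listed relatives, and the bound of miR-103a-2-5p with total counts, were added after seeing the data.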

Additional observations from a re-analysis of the deposited data

How the results depend on the processing

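miR-107 was called depleted under all 14 alternatives, with log2 enrichments from -2.03 (DESeq2 size factors and DESeq2's Wald test) to -0.60 (total counts), -0.86 with upper-quartile factors, and from -1.86 to -1.57 with each library left out. Adjusted p-values ranged from 3.14e-35 to 0.0016 over edgeR and DESeq2. Taken relative to the shift of the median of all tested miRNAs, which was 1.09 with total counts, 0.82 by upper quartile and -0.34 by the DESeq2 factors, its value lay between -1.81 and -1.55. miR-103a-2-5p entered the test through its input alone and its call could take no other direction, so nothing on stability is read from it. It could not be tested with at least 10 counts in every library or without any 1 of the input libraries. Its fitted values rest on 0 counts in m7G-RIP and are no measure of size (-7.79 to -7.73 without each m7G-RIP library). miR-103a-3p and miR-103b gave no value under any alternative. The ratio of miR-107 to miR-16-5p changed by -1.98 on the log2 scale, and by -2.30 to -1.77 with each library left out.

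The number of enriched miRNAs, 321, was 182 with at least 10 counts in every library, where 426 miRNAs were tested, and 268 to 341 with each library left out. The number of depleted miRNAs, 305, was 198 under scaling by total counts and 175 under the stricter filter of 10 counts per library, and ranged from 235 to 377 with each library left out. Enriched miRNAs made up 51.3% of calls with TMM and 69.1% with total counts.

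Same-numbered libraries did not deviate together (correlations of -0.0296, -0.0394 and 0.0714), and not every library correlated best with its own number. With the replicate number as a block, 296 miRNAs were enriched and 295 depleted, miR-107 stood at -1.70 and was called depleted, and the paired change of the ratio of miR-107 to miR-16-5p was -1.98 (SD 0.74, lower in 3 of 3 pairs, exact paired permutation p = 0.25, the smallest it allows).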

Other observations

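Other well-known miRNAs shared the zeros of miR-103a-3p. miR-423-5p and miR-423-3p, overlapped by the arms of miR-3184 on the opposite strand, miR-203a-3p, overlapped by miR-203b-5p, miR-371a-3p, overlapped by miR-371b-5p, and miR-374b-5p, overlapped by miR-374c-3p, each had 0 counts in all 6 libraries. miR-122-5p, one of the marker miRNAs of other tissues, was also at 0 and is overlapped by miR-3591-3p. miR-24-3p has 2 loci, 1 of them overlapped by miR-3074-5p over 20 bases, and had 134219 counts over the 6 libraries.

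Counts of miRNAs with several loci tended to be whole multiples of the number of loci. Of the values above 0, 76.2% were even for miRNAs with 2 loci, 68.4% were multiples of 3 for those with 3 loci, 96.0% (24 of 25) were multiples of 4 for those with 4 loci, and 58.3% (7 of 12) were multiples of 5 for those with 5 loci. Of all whole numbers 50.0%, 33.3%, 25.0% and 20.0% are such multiples. The methods let a read map to several loci but do not state how such reads were counted, and the cause of these multiples was not tested.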
